A study of Mus musculus with 96 samples.

Results

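Putrescine, spermidine and spermine are small positively charged molecules that bind nucleic acids and are needed for translation and growth. Ornithine decarboxylase makes putrescine from ornithine, and spermidine synthase and spermine synthase add aminopropyl groups that come from decarboxylated S-adenosylmethionine. Acetylation and oxidation turn the longer polyamines back into shorter ones, and antizymes, whose own translation responds to polyamines, bind ornithine decarboxylase and send it to the proteasome, while the antizyme inhibitor binds antizyme in its place.

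The genes described here are 10 of the 56748 genes in the count table: Odc1, Amd1, Srm and Sms for synthesis, Sat1, Smox and Paox for breakdown, and Oaz1, Oaz2 and Azin1 for control of ornithine decarboxylase. They were chosen by name from the pathway, with their levels in CPM (counts scaled to a common library total) in liver, muscle and cortex under both diets already known. For this reason every difference between groups given below for these genes is a description, and none is offered as a test of them. That a gene passed or was called says only on which side of the threshold it fell in a fit across all genes, and it is set beside the share of all genes that did so.

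RNA-seq libraries were made from liver, skeletal muscle and cerebral cortex of mice fed ad libitum (AL) or kept on intermittent fasting (IF), with 8 mice for each sex and diet. The study asked how gene expression in these tissues differs between the diets. Males were C57BL/6 mice that entered the diets at 6 weeks of age and stayed on them for 4 months, with a daily fast of 16 h for the IF males. Females carry the same diet names in the labels, whereas their strain, age, feeding hours and time of death are not given in the sources used here.

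Males are mice 1 to 16 and females mice 25 to 40, so sex and cohort cannot be told apart. The IF males were killed in the morning around the end of a fast, so the last fast and the long-term regimen cannot be told apart either. The labels name each library as a separate sample of its group. Library totals ran from 26097314 to 49838004 counts over the 95 libraries used, and 3 counts in the shallowest library equal 0.115 CPM.

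The cortex library labelled male AL 1 was left out, which leaves 7 mice in that group. It held Xist, the RNA that silences an X chromosome in females, at 213 CPM, against at most 0.229 CPM in the other cortex males and 185 to 337 CPM in the cortex females. The Y-linked genes Ddx3y, Uty, Kdm5d and Eif2s3y were at 0 in it. Its counts were nearest to those of cortex female IF mouse 40, with a chi-square per gene of 4.54, where the median over 496 cortex pairs was 41.9 and counting alone gives 1. In the other 95 libraries, Xist and the Y-linked genes went with the labelled sex.

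Tissue markers went with the labelled tissues. The summed level of 5 hepatocyte genes was 43690 to 99700 CPM in liver, that of 5 skeletal muscle fibre genes was 104700 to 137200 CPM in muscle, and that of 5 neuron genes was 4923 to 7058 CPM in cortex. Cortex libraries differed in choroid plexus RNA, whose 4 marker genes summed to between 4.37 and 4369 CPM, nearly all of it Ttr.

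Genes of the circadian clock, picked after their values were seen, differed between the cohorts, though not each gene in each tissue. In AL liver, Dbp, a clock output gene, was at 1.33 to 27.3 CPM in males and 193 to 297 CPM in females, with no overlap. Arntl, which peaks in the opposite phase, was at 13 to 26.5 CPM in AL male liver and 0.654 to 1.95 CPM in AL female liver. As AL females against AL males, its log2 fold change was −4.25 in liver and −0.39 in cortex. In that comparison Nr1d1 did not pass in muscle, at −0.29, nor did Per1 in cortex, at 0.25. Sex, cohort and the hour of sampling therefore cannot be told apart in any comparison between the sexes. Within males, Per1 in liver was at 2.64 to 8.29 CPM under AL and 46.9 to 203 CPM under IF. The log2 fold change in male liver was 1.51 for Dbp, −1.91 for Arntl and −1.96 for Nr1d1. In male muscle Dbp did not pass, at 0.20. In male cortex Per1 and Nr1d1 did not pass, at 0.10 and −0.03, whereas Dbp and Arntl did, at 0.77 and −0.48. Clock genes thus moved with diet as well, though not each in each tissue, and their part in the results was not tested.

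**Figure D1:**
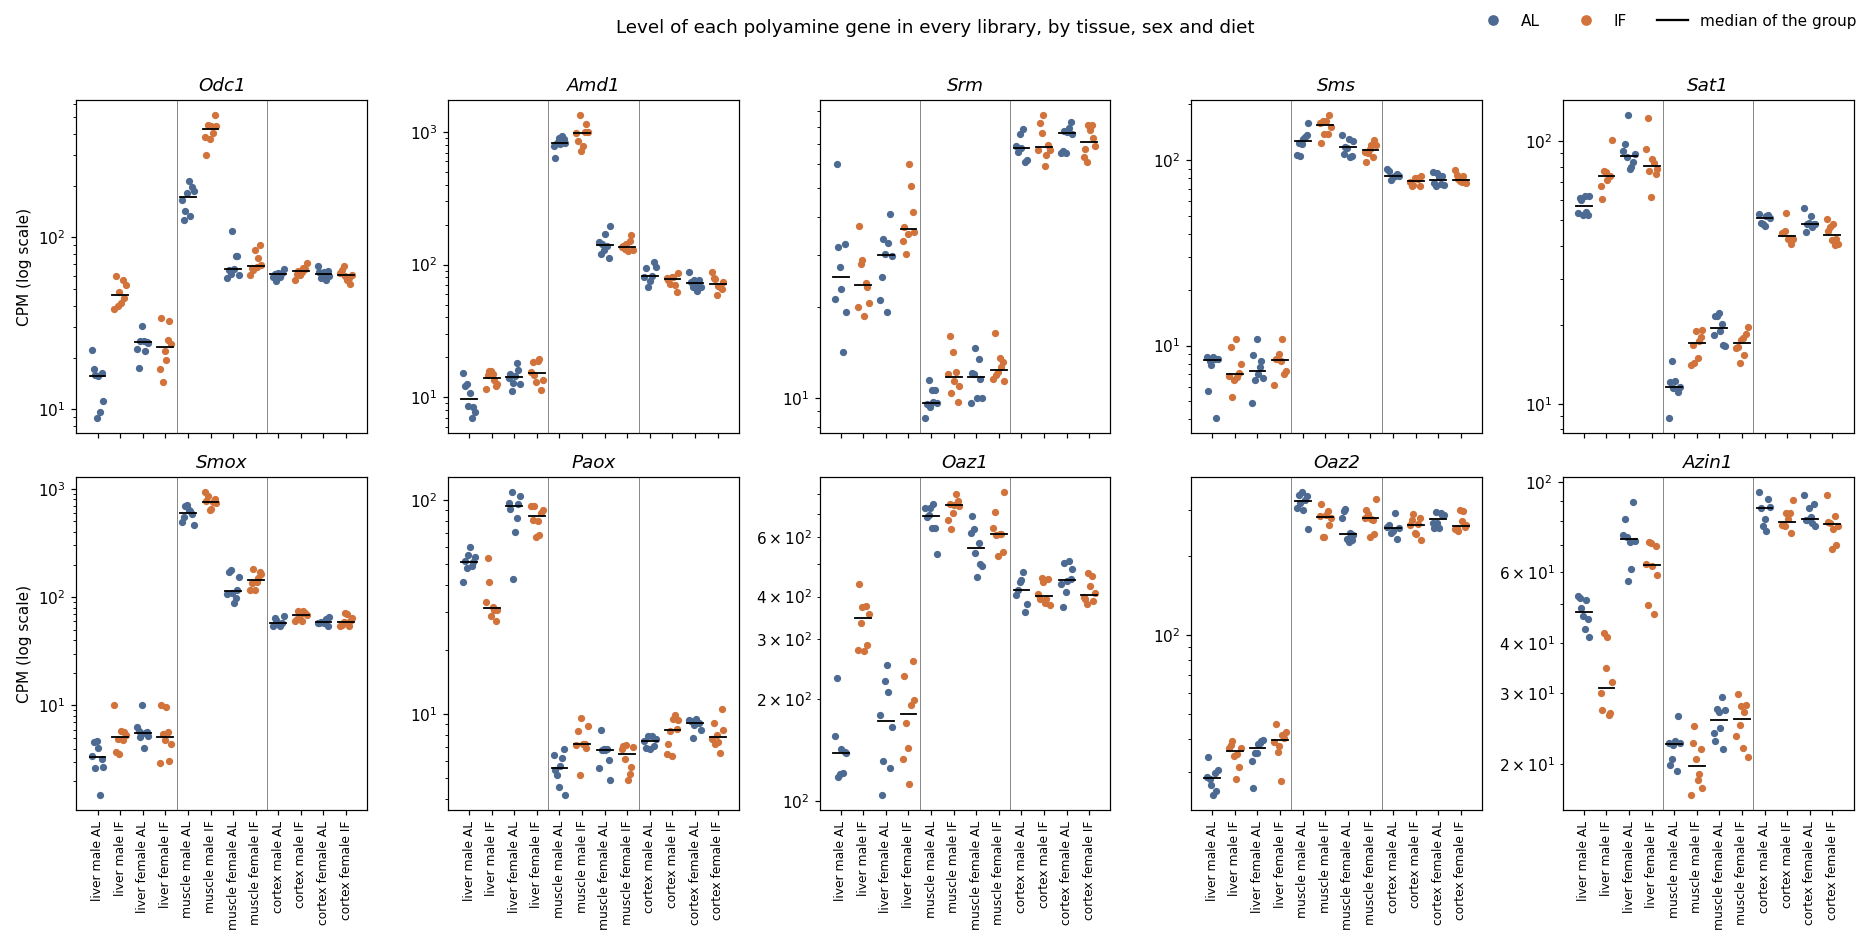
CPM of the 10 genes in each library on a log axis, by tissue, sex and diet, with 1 point per mouse. Odc1 in male liver lies between 8.93 and 22.2 CPM under AL and between 38.2 and 59.5 CPM under IF, and the female groups overlap.

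Levels were set side by side between genes only per kilobase of gene length. By the mean CPM per kilobase, Oaz1, an antizyme, stood first of the 10 genes in all groups. In AL male liver Oaz1 was at 56.9 CPM per kilobase, Sat1 at 20.6 and Srm at 18.0, and the libraries of the last pair overlapped. At the low end, Sms stood at 1.25 CPM per kilobase and Smox at 0.862, again with overlapping libraries.

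Male muscle had another order. Under AL, Oaz1 at 263.5 CPM per kilobase was followed by Amd1 at 233 and Smox at 153, and neighbours among these overlapped. Oaz2 at 106, Odc1 at 49.4, Sms at 21.1 and Srm at 6.20 CPM per kilobase each lay apart from the next gene, whereas Sat1 at 4.20 and Azin1 at 3.52 overlapped. Paox, which oxidises acetylated polyamines, was last at 1.13 CPM per kilobase.

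In female AL muscle, Amd1 at 40.9 CPM per kilobase and Smox at 32.7 stood below Oaz2 at 85.8. In cortex the order was alike in its upper part in each of the 4 groups: Oaz1, Oaz2, Srm and Amd1. In AL male cortex these were at 163, 85.7, 42.8 and 24.3 CPM per kilobase, each apart from the next. Odc1, Sat1, Smox, Sms and Azin1 lay between 13.6 and 18.2 CPM per kilobase there, with overlapping neighbours, and Paox was last.

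In male liver, IF mice had more Odc1, Oaz1, Sat1 and Smox RNA and less Paox and Azin1 RNA than AL mice. These were 6 of the 10 genes past an adjusted p of 0.05 in edgeR, against 44.6% of all 16204 genes tested. The median log2 fold change was 0.26 over the 10 genes and 0.06 over all genes tested. Scaling by library totals alone shifted the median of all genes by 0.09 in this comparison. That scaling put 4402 genes higher and 2694 lower, against 3815 and 3419 with the scaling used. Counts of IF mice beyond the AL mice rest on CPM, which uses those totals.

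Odc1 (ENSMUSG00000011179, chr12:17594795-17601506, GRCm39), the enzyme that makes putrescine, had a lowest, median and highest level of 8.93, 15.8 and 22.2 CPM in AL male liver. Under IF the same values were 38.2, 46.4 and 59.5 CPM. All IF mice lay above all AL mice. Odc1 rose by a log2 fold change of 1.63 ± 0.16 (SE, n = 8 and 8), a fold of 3.08.

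The genes of the later steps of synthesis did not pass the threshold in male liver, although Amd1 lay near it. Amd1 (chr10:40163454-40178184), which decarboxylates S-adenosylmethionine, had a median of 9.70 CPM under AL and 14.1 CPM under IF, with a log2 fold change of 0.34 ± 0.14. It passed with library totals alone, at 0.42, and with the replicate block, at 0.37. Srm (chr4:148675960-148679450), spermidine synthase, ranged from 14.2 to 60.3 CPM under AL and from 18.8 to 37.4 CPM under IF, with a log2 fold change of −0.25 ± 0.23. The highest AL value was that of mouse 2, and without this mouse the log2 fold change was −0.05. Sms (chrX:156226851-156275283), spermine synthase, was at medians of 8.35 and 7.01 CPM, with a log2 fold change of −0.07 ± 0.18. In all of these the AL and IF libraries overlapped.

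Among the breakdown genes, Sat1 (chrX:153996128-153999445), which acetylates spermidine and spermine, was at 52.4, 56.8 and 62.0 CPM in AL male liver and at 60.4, 73.9 and 102 CPM under IF. In 7 of the 8 IF mice it lay above the highest AL mouse, and it rose by 0.31 ± 0.10 on the log2 scale. Smox (chr2:131333416-131367842), which oxidises spermine, was low, at 1.49, 3.32 and 4.69 CPM under AL and 3.54, 5.09 and 10.1 CPM under IF. Of the IF mice, 6 exceeded the highest AL mouse, and Smox rose by 0.61 ± 0.22.

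Paox (chr7:139695712-139717137) was at 41.6, 51.5 and 60.5 CPM under AL and 27.2, 31.1 and 53.6 CPM under IF in male liver. It fell by 0.65 ± 0.14 on the log2 scale, and 7 IF mice lay below the lowest AL mouse. Paox shares 678 bases with Echs1, an enzyme of fatty acid oxidation on the opposite strand, and the strand setting of the counting is not given in the sources used here, so reads of the 2 genes may have been mixed. Echs1 rose by 0.55 ± 0.11 in the same comparison.

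Of the regulators, Oaz1 (chr10:80662490-80665124) had a lowest, median and highest level of 118, 139 and 230 CPM in AL male liver. Under IF these were 276, 345 and 437 CPM, all above the AL mice. Oaz1 rose by 1.15 ± 0.14, a fold of 2.22. Oaz2 (chr9:65575283-65597582), the second antizyme, had medians of 28.4 and 35.9 CPM with overlapping groups, and its log2 fold change of 0.21 ± 0.10 did not pass, except with library totals alone, at 0.30. Azin1 (chr15:38487671-38519510), the antizyme inhibitor, was at 41.4, 47.6 and 52.3 CPM under AL and 26.6, 31 and 42.2 CPM under IF. It fell by 0.65 ± 0.11, with 7 IF mice below the lowest AL mouse.

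Markers of other cell types moved in the same livers. The 5 erythrocyte genes summed to 362, 569 and 956 CPM (lowest, median, highest) under AL and 667, 2070 and 6879 CPM under IF, with 5 of 5 genes higher and Hba-a1 the most abundant (adjusted p = 0.0187, exact permutation test over 60 marker tests). The 4 endothelial genes summed to medians of 44.2 and 75.4 CPM, with 4 of 4 higher and Kdr the most abundant (adjusted p = 0.00466, exact permutation test). In these bulk samples more cells of a type and more RNA per cell cannot be told apart. The part of these markers in the results was not tested beyond the refits that follow. With the erythrocyte score as a covariate the number of genes past the threshold dropped from 7234 to 3995, and Sat1 and Smox no longer passed, at 0.39 and 0.35. Without the 2 IF libraries richest in erythrocyte RNA, a refit added after the data were seen, Smox did not pass at 0.50. Sat1 also did not pass, at 0.26, without the filter on low counts.

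In male muscle, IF mice had more Odc1, Sat1, Smox and Paox RNA and less Oaz2 RNA. These were 5 of the 10 genes, against 23% of 15025 genes tested. The median log2 fold change was 0.20 over the 10 genes and 0.01 over all genes tested.

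Odc1 in male muscle was at 126, 173 and 214 CPM under AL. Under IF it was at 301, 425 and 513 CPM. The groups did not overlap, and Odc1 rose by 1.23 ± 0.12 on the log2 scale, a fold of 2.35.

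Amd1, among the most abundant of the 10 genes in male muscle, was at 634, 825.5 and 928 CPM under AL and 716, 992 and 1337 CPM under IF. The groups overlapped, and its log2 fold change of 0.18 ± 0.11 did not pass. Srm at 0.21 ± 0.09 and Sms at 0.19 ± 0.08 did not pass either. With library totals alone Srm and Sms passed, at 0.29 and 0.25, and with the adipocyte score as a covariate Amd1 and Sms did, at 0.34 and 0.31. Sms also passed, at 0.26, without the 2 IF libraries richest in adipocyte RNA. A pseudogene of Sms, Sms-ps, held 11.4% as many counts as Sms in muscle, so reads of the 2 may be divided between them.

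Sat1 in male muscle was at 8.84, 11.6 and 14.6 CPM under AL and 14, 17.1 and 19.1 CPM under IF, with 6 IF mice above the highest AL mouse. It rose by 0.44 ± 0.08. Smox was at 464, 602 and 703.5 CPM under AL and 642, 762 and 927 CPM under IF, with 6 IF mice above the highest AL mouse, and it rose by 0.30 ± 0.09. Paox was low, at 4.18 to 6.84 CPM under AL and 5.16 to 9.57 CPM under IF, and it rose by 0.36 ± 0.12.

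Of the regulators in male muscle, Oaz2 passed and Oaz1 and Azin1 did not. Oaz1 was at medians of 691 and 742 CPM, with a log2 fold change of 0.03 ± 0.07. Oaz2 was at 253, 324 and 350 CPM under AL and 236, 282 and 315 CPM under IF, and it fell by 0.28 ± 0.07. Azin1, at medians of 22.4 and 19.8 CPM, had a log2 fold change of −0.20 ± 0.08.

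The 5 adipocyte genes summed to 143, 250 and 515 CPM in AL male muscle and 332, 976 and 2489 CPM under IF, with 4 of 5 higher and Fabp4 the most abundant (adjusted p = 0.00932, exact permutation test). The 5 hepatocyte genes summed to medians of 4.71 and 85.5 CPM, with 3 of 5 higher (adjusted p = 0.00466, exact permutation test). Nearly all of that sum was Cyp2e1, at means of 5.54 and 95.4 CPM of summed means of 6.16 and 96.7 CPM. With the adipocyte score as a covariate Smox, at 0.30, and Paox, at 0.19, did not pass. Without AL mouse 2 and IF mouse 10 neither passed, at 0.29 and 0.34, which left 3 of the 10 genes. Of all genes that refit called 3245, against 3463 with all libraries. Paox also did not pass, at 0.28, without the 2 IF libraries richest in adipocyte RNA, a refit added after the data were seen. Nor did Paox pass with the replicate block. Scaling by library totals alone put 2553 genes higher and 1073 lower in this comparison, against 1726 and 1737 with the scaling used.

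In male cortex none of the 10 genes passed in edgeR, against 7.21% of 18462 genes tested. At an unadjusted p under 0.05 there were 4400 genes, 3 of them among the 10. DESeq2 called 2259 genes and 1 of the 10, Smox. Smox was at 53.6, 58.0 and 67.1 CPM under AL and 60.0, 68.1 and 75.1 CPM under IF, and 5 IF mice exceeded the highest AL mouse. Its log2 fold change was 0.20 ± 0.07. Sat1 was at 47.6 to 53.0 CPM under AL and 40.8 to 53.2 CPM under IF, with 7 IF mice below the lowest AL mouse and a log2 fold change of −0.17 ± 0.06. Odc1 ranged from 55.7 to 65.4 CPM under AL and from 56.4 to 71.0 CPM under IF.

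The number of genes past the threshold in male cortex, 1332, depended on the libraries, the tool and the replicate block. It was 294 with the library labelled male AL 1 kept and 498 without AL mouse 2 and IF mouse 10. With the replicate block it was 382, and with DESeq2 2259. The 3 oligodendrocyte genes, Mbp most of all, summed to 3523, 4296 and 5514 CPM in AL male cortex and 4751, 6306 and 7892 CPM under IF (adjusted p = 0.0175, exact permutation test, 3 of 3 genes higher), and their part in the results was not tested.

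Of the 60 marker tests, 11 passed in all. The others were neuron in male liver, from a median of 5.12 to 7.68 CPM with 4 of 5 genes higher, astrocyte in male liver, from 760.5 to 952 CPM with 2 of 3 higher and nearly all Aldh1l1, which hepatocytes also express, and astrocyte in male muscle. The last went from 17.2 to 24.9 CPM with 2 of 3 higher and Aqp4 the most abundant. The adipocyte sum in male cortex stayed below 1 CPM in all libraries, at medians of 0.161 and 0.395 CPM with 3 of 5 higher. Endothelial sums were lower under IF in female muscle, at medians of 140 and 106 CPM (adjusted p = 0.0401, exact permutation test, 0 of 4 genes higher), and in male cortex, at 52.1 and 48.4 CPM (adjusted p = 0.0415, exact permutation test, 0 of 4 genes higher). No test of the skeletal muscle fibre, macrophage or choroid plexus lists passed, and the lowest adjusted p among tests that did not pass was 0.0622, for macrophage in male muscle (exact permutation test). With TMM-scaled CPM the astrocyte sum in male liver and the endothelial sums in female muscle and male cortex did not pass, whereas oligodendrocyte in male liver and macrophage in male muscle did.

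**Figure D2:**
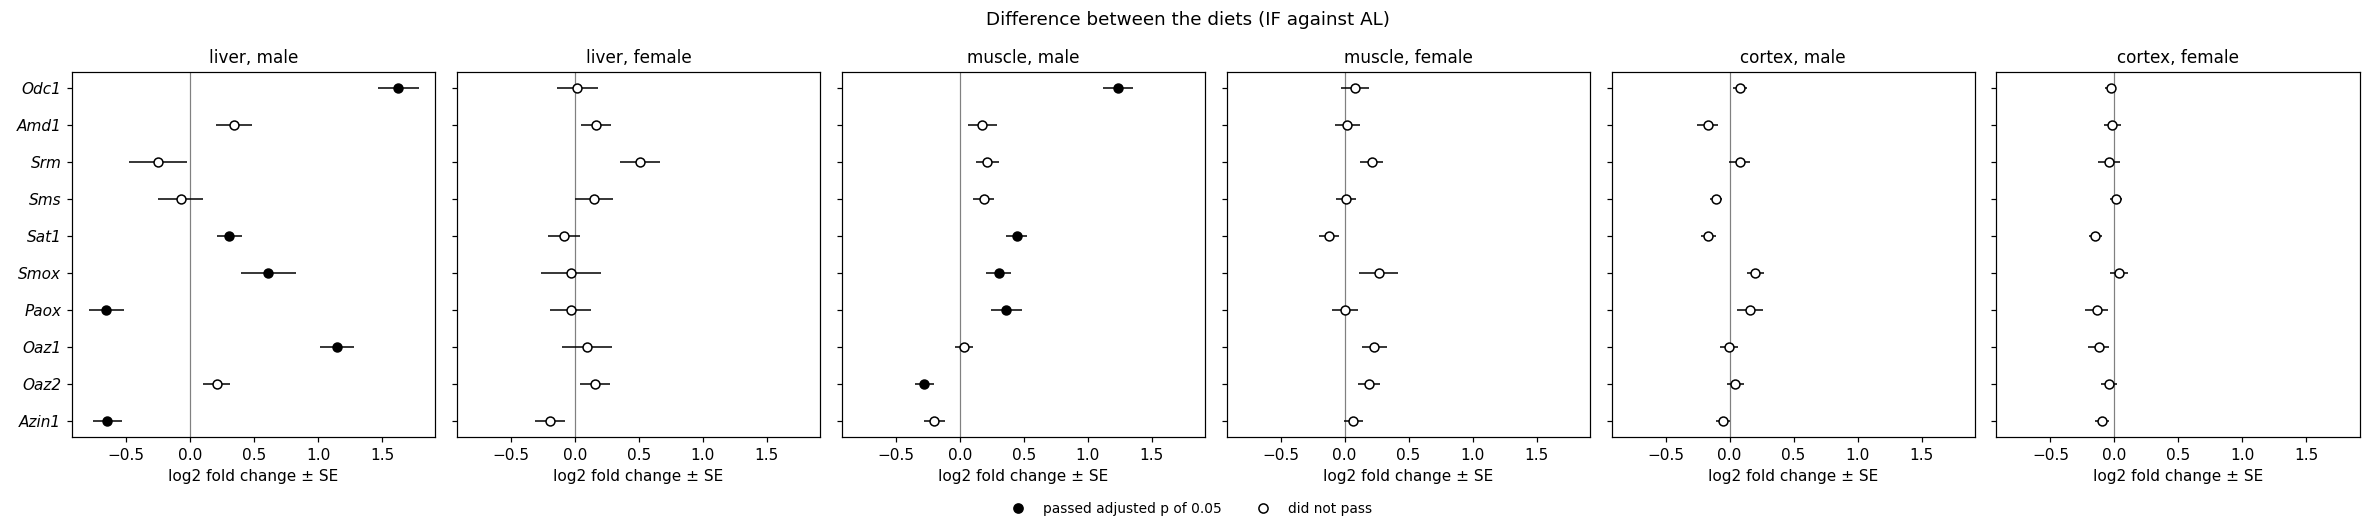
Log2 fold change of IF against AL with its SE for the 10 genes in each tissue and sex, with filled points for genes past an adjusted p of 0.05. Odc1 is at 1.63 in male liver and 1.23 in male muscle, and no point is filled in cortex or in females.

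In females, edgeR called 0 of the 10 genes in liver, where it called 0 of 15938 genes (0%). At an unadjusted p under 0.05 there were 919 genes, 1 of them among the 10, and DESeq2 called 6 genes and 0 of the 10. In female muscle edgeR called 0 of the 10 and 1 of 15308 genes (0.00653%), Rn18s-rs5. The unadjusted counts were 1644 genes and 3 of the 10, and DESeq2 called 97 genes and 0 of the 10. In female cortex edgeR called 0 of the 10 and 2 of 18403 genes (0.0109%), mt-Atp6 and Gm11263. The unadjusted counts were 2069 genes and 1 of the 10, and DESeq2 called 68 genes and 0 of the 10. These 3 genes outside the pathway were named after their values were seen.

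Odc1 in female liver was at 17.5, 24.5 and 30.5 CPM under AL and 14.4, 22.9 and 34 CPM under IF. The groups overlapped, and the log2 fold change was 0.02 ± 0.16. In female muscle Odc1 was at 58.4, 65.3 and 109 CPM under AL and 60.3, 68.3 and 90.4 CPM under IF, with a log2 fold change of 0.08 ± 0.11. Oaz1 in female liver was at 104, 172 and 252 CPM under AL and 112, 181 and 259 CPM under IF, with a log2 fold change of 0.09 ± 0.19.

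Srm was the gene with the highest log2 fold change of the 10 in female liver, at 0.51 ± 0.15. Its levels were 19.4, 29.8 and 41.0 CPM under AL and 30.1, 36.4 and 59.9 CPM under IF, and all IF mice lay above the AL median. In female cortex the log2 fold changes of the 10 genes lay between −0.15 for Sat1 and 0.03 for Smox.

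The difference between the sexes in the diet response was fitted as an interaction. In liver, 5 of the 10 genes passed, against 23.7% of 17658 genes tested. As female response minus male response, the log2 difference was −1.57 ± 0.23 for Odc1 and −1.02 ± 0.25 for Oaz1. It was 0.79 ± 0.28 for Srm, 0.65 ± 0.22 for Paox and 0.49 ± 0.16 for Azin1. With library totals alone as the scaling, which shifted the median of all genes by −0.17, Srm, Paox and Azin1 did not pass, at 0.67, 0.51 and 0.31, and Sat1 did, at −0.52, which left 3 of the 10. Srm also did not pass, at 0.80, without the filter on low counts, nor, at 0.58, without AL male mouse 2, its highest AL male value.

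In muscle the interaction passed for 3 of the 10 genes, against 14.2% of 16346. The log2 difference was −1.14 ± 0.17 for Odc1, −0.55 ± 0.11 for Sat1 and 0.48 ± 0.12 for Oaz2. Library totals alone shifted the median of all genes by −0.16 here and brought 5 of the 10 past the threshold, with Sms at −0.31 and Paox at −0.51 added. The split of genes higher and lower moved with that scaling, from 2265 and 1919 to 1481 and 2771 in liver and from 1207 and 1107 to 522 and 2563 in muscle. In cortex edgeR called 0 of the 10, against 2.03% of 19547 genes. The unadjusted counts were 3007 genes and 2 of the 10, and DESeq2 called 713 genes and 0 of the 10.

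The liver and the muscle of a mouse carry the same number, and the difference between their responses was fitted with the mouse as a block. In males 4 of the 10 genes passed, against 30.3% of 18222. As liver response minus muscle response, the log2 difference was 1.09 ± 0.17 for Oaz1 and 0.47 ± 0.14 for Oaz2. It was −1.08 ± 0.20 for Paox and −0.47 ± 0.12 for Azin1. For Odc1 it was 0.39 ± 0.22 and did not pass. In females edgeR called 0 of the 10 and 0 of 18311 genes (0%). The unadjusted counts were 835 genes and 0 of the 10, and DESeq2 called 5 genes and 0 of the 10.

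Differences between the sexes under AL were added after the data were seen, and they use the same AL males as the diet comparisons. In liver 5 of the 10 genes were higher in females, against 20% of 17658 genes in either direction. Sat1 was at 78.3, 88.3 and 126 CPM in AL females, all above the AL males, with a log2 fold change of 0.53 ± 0.11. Azin1, at 56.8, 72.3 and 89.2 CPM, also lay above all AL males, with a log2 fold change of 0.45 ± 0.11. Odc1 at 0.56 ± 0.17, Smox at 0.69 ± 0.23 and Paox at 0.60 ± 0.15 overlapped with the males in at least 1 mouse. With library totals alone Amd1, at 0.47, and Oaz2, at 0.33, passed as well.

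In AL muscle 7 of the 10 genes passed, against 38.4% of 16346, and 6 of them were lower in females. Amd1 was at 634, 825.5 and 928 CPM in AL males and 113, 141 and 195 CPM in AL females, with a log2 fold change of −2.65 ± 0.12. Smox was at 464, 602 and 703.5 CPM in AL males and 87.8, 113 and 178 CPM in AL females, with a log2 fold change of −2.35 ± 0.14. Neither overlapped between the sexes.

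Odc1 in AL muscle was lower in all females than in any male, with a log2 fold change of −1.37 ± 0.12. Oaz2 at −0.44 ± 0.08, Oaz1 at −0.40 ± 0.09 and Sms at −0.24 ± 0.09 were lower with overlapping groups, and with library totals alone Sms did not pass, at −0.11, whereas Azin1 did, at 0.21. Sat1 was the gene higher in females, at 16.6 to 22.1 CPM against 8.84 to 14.6 CPM, with a log2 fold change of 0.60 ± 0.08. Library totals alone shifted the median of all genes by 0.14 in muscle and 0.15 in liver. With that scaling 5046 genes were higher and 1869 lower in muscle, against 3135 and 3138, and 3384 higher and 1016 lower in liver, against 1836 and 1694.

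In AL cortex 1 of the 10 genes passed, against 12.6% of 19547. This was Amd1, at 68.3 to 105 CPM in males and 62.8 to 87.8 CPM in females, with a log2 fold change of −0.23 ± 0.08. It did not pass with library totals alone, at −0.24, without the filter on low counts, at −0.23, or with the library labelled male AL 1 kept, at −0.20. Paox passed with RLE size factors and with DESeq2, at 0.28 in both.

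Sums of cell type markers also differed between the sexes under AL. Of the 10 lists, the medians lay more than 1.2 times apart for 5 in liver, 5 in muscle and 7 in cortex, a bound chosen after the values were seen. The part of these sums in the differences between the sexes was not tested. In liver the macrophage sum was at 108, 139 and 210 CPM in males and 207, 241 and 680 CPM in females, with 5 of 5 genes higher in females and Clec4f the most abundant. The neuron sum was at 2.95, 5.12 and 7.17 CPM in males and 6.79, 10.9 and 16.4 CPM in females, with 2 of 5 higher, Syt1 the most abundant and Slc17a7 at 0. The hepatocyte sum, with 3 of 5 higher and Alb the most abundant, had medians of 54760 and 73200 CPM. The adipocyte sum, mostly Fabp4 with 2 of 5 higher, had medians of 17 and 10.1 CPM, and the skeletal muscle fibre sum had medians below 1 CPM.

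In AL muscle the hepatocyte sum had medians of 4.71 CPM in males and 12.3 CPM in females, with 1 of 5 genes higher in females and most of it Cyp2e1. The astrocyte sum had medians of 17.2 and 33 CPM, with 3 of 3 higher and Aqp4 the most abundant. The oligodendrocyte sum had 21.4 and 35.4 CPM, with 2 of 3 higher and Mbp the most abundant, and the erythrocyte sum 346 and 212 CPM, with 0 of 5 higher and Hbb-bs the most abundant. The neuron sum had medians below 1 CPM.

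In AL cortex the oligodendrocyte sum had medians of 4296 CPM in males and 5513 CPM in females, with 3 of 3 genes higher in females and Mbp the most abundant. The astrocyte sum had 246.5 and 311 CPM, with 2 of 3 higher and Gfap the most abundant. The erythrocyte sum had 261 and 362 CPM, with 5 of 5 higher and Hbb-bs the most abundant, and the skeletal muscle fibre sum 19.5 and 25.5 CPM, with 5 of 5 higher and Acta1 the most abundant. The hepatocyte sum, at 29.6 and 19.8 CPM, and the choroid plexus sum, at 36 and 21.55 CPM, were both mostly Ttr and ranged up to 3104 and 3156 CPM in males. Of their genes, 3 of 5 and 0 of 4 were higher in females. The adipocyte sum had medians below 1 CPM.

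**Figure D3:**
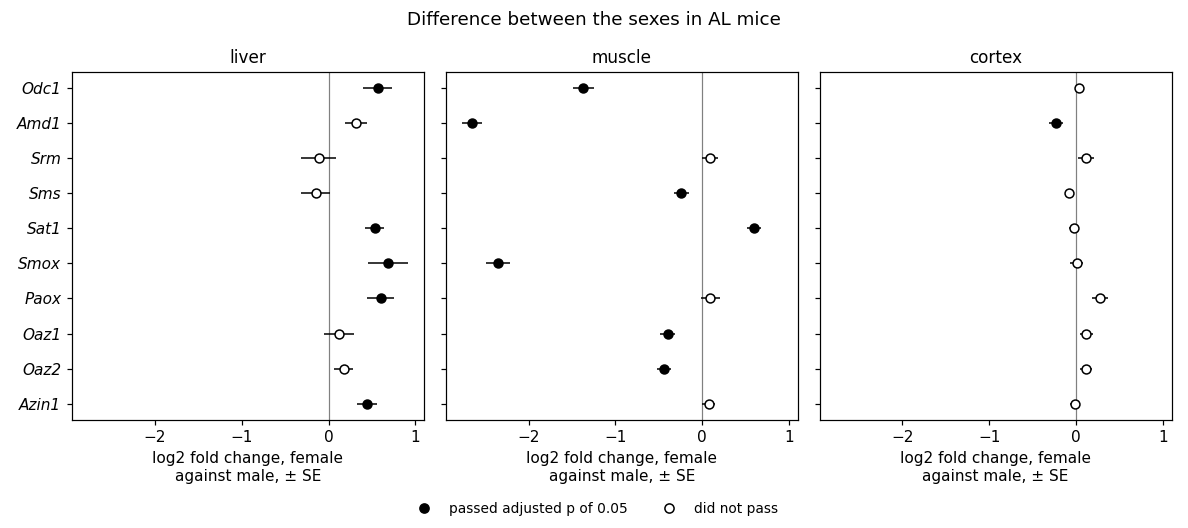
Log2 fold change of AL females against AL males with its SE for the 10 genes in each tissue, with filled points for genes past an adjusted p of 0.05. In muscle, Amd1 is at −2.65, Smox at −2.35 and Odc1 at −1.37, and Sat1 is at 0.60.

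Genes around the pathway were followed in a wider list of supply, salvage, transport and target genes. In male liver 9 of its 32 tested genes rose and 10 fell, where 44.6% of all genes tested passed in either direction. Among those with the largest fold changes were Gnmt, which methylates glycine with S-adenosylmethionine, and Otc, a urea cycle enzyme that uses ornithine. Gnmt was at 489 to 620 CPM under AL and 1580 to 2145 CPM under IF and rose by 1.59 ± 0.12. Otc, at 314 to 476 CPM under AL and 110 to 183.5 CPM under IF, fell by 1.36 ± 0.14.

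In the same male livers 3 of the 5 methionine salvage genes fell, where 3419 of all 16204 genes did. Mtap fell by 1.16 ± 0.13, Apip by 0.94 ± 0.10 and Adi1 by 0.51 ± 0.12. The 3 tested genes of the hypusine list rose, where 3815 of all 16204 genes did: Eif5a, the translation factor whose lysine spermidine modifies to hypusine, by 0.62 ± 0.14, and the modifying enzymes Dhps by 0.74 ± 0.12 and Dohh by 0.68 ± 0.13. Sat2 fell by 0.73 ± 0.12 and Agmat by 0.81 ± 0.11. Apart from Eif5a, these genes were named after their values were seen. Amd2, a copy of Amd1, was too low to be tested in liver, at no more than 0.710 CPM.

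In male muscle 7 of 28 tested genes of the wider list rose and 2 fell, where 23% of all genes tested passed. The largest fold changes were those of Slc22a3, an organic cation transporter, at 1.82 ± 0.51, Eif5a2 at 1.31 ± 0.29 and Myc, a transcription factor that acts on Odc1, at 1.26 ± 0.23. All 3 were low, with medians under IF of 2.01, 1.19 and 4.14 CPM. Amd2 at 0.38 ± 0.17 and Eif5a at −0.11 ± 0.06 did not pass.

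In male cortex edgeR called 0 of 34 genes of the wider list, against 7.21% of all genes tested. At an unadjusted p under 0.05 there were 10 of the 34 and 4400 of all 18462 genes. In females edgeR called 0 of 33 in liver, 0 of 29 in muscle and 0 of 35 in cortex, where it called 0, 1 and 2 of all genes. The unadjusted counts were 1, 3 and 5 of the list, against 919 of 15938, 1644 of 15308 and 2069 of 18403 genes. Amd2 was at 0.06 ± 0.30 in male cortex, 0.03 ± 0.28 in female muscle and −0.04 ± 0.33 in female cortex. Eif5a was at −0.03 ± 0.07 in male cortex, 0.13 ± 0.19 in female liver, 0.15 ± 0.07 in female muscle and −0.09 ± 0.08 in female cortex.

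For the interaction with sex in liver, 10 of 34 genes of the wider list had a higher response in females and 5 a lower one, where 23.7% of all genes tested passed. Gnmt was at −1.50 ± 0.24, Otc at 1.38 ± 0.19 and Eif5a, which did not pass, at −0.46 ± 0.24. In muscle 3 of 29 were higher and 6 lower, where 14.2% of all genes passed, led by Slc22a3 at −2.17 ± 0.63, Eif5a2 at −1.16 ± 0.39 and Myc at −1.16 ± 0.32. Eif5a was at 0.28 ± 0.09 and Amd2, which did not pass, at −0.34 ± 0.33. In cortex edgeR called 0 of 35, where 2.03% of all genes passed. At an unadjusted p under 0.05 there were 7 of the 35 and 3007 of all 19547 genes. Amd2 was at −0.09 ± 0.46 there and Eif5a at −0.06 ± 0.11.

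Between liver and muscle of males, 7 of 35 genes of the wider list had a higher response in liver and 9 a lower one, where 30.3% of all genes tested passed. Fitted alone, male liver had 32 tested genes of the list and male muscle 28. Some of the 35 were thus too low to be tested in 1 of the tissues, and no conclusion is drawn from these counts. Slc22a3 was at −2.17 ± 0.53 (liver minus muscle), Gnmt at 1.96 ± 0.34 and Eif5a at 0.69 ± 0.17. In muscle of these males Slc22a3 and Gnmt were low, at 0.128 to 5.18 CPM and 0.196 to 1.69 CPM. In females 0 of 36 passed in edgeR, with 0 at an unadjusted p under 0.05, against 835 of all 18311 genes. Eif5a was at −0.03 ± 0.25 in females. No difference is given for Amd2, which was at 0 to 0.710 CPM in liver and entered these fits by its muscle counts.

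Between the sexes under AL, 4 of 34 genes of the wider list were higher in female liver and 3 lower, where 20% of all genes tested passed. Azin2, a second antizyme inhibitor, was at 0.805 to 2.88 CPM in males and 3.16 to 9.65 CPM in females, with a log2 fold change of 1.63 ± 0.28. Mat1a, which makes S-adenosylmethionine in liver, was at 0.93 ± 0.14, Slc18b1 at −0.64 ± 0.17 and Eif5a, which did not pass, at 0.17 ± 0.17.

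In AL muscle 8 of 29 genes of the wider list were higher in females and 7 lower, where 38.4% of all genes tested passed. Amd2, at 2.43 to 4.94 CPM in males and 0.609 to 2.35 CPM in females, was lower with a log2 fold change of −1.81 ± 0.23, in the direction of Amd1, of whose counts it held 0.527% in muscle. Myc was at 1.58 ± 0.23 and Eif5a at −0.29 ± 0.07. In AL cortex 6 of 35 were higher in females and 1 lower, where 12.6% of all genes passed, led by Slc12a8 at 0.75 ± 0.14, Agmat at 0.74 ± 0.22 and Sat2 at 0.40 ± 0.09. Amd2 at −0.02 ± 0.33 and Eif5a at 0.08 ± 0.08 did not pass there.

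Pdk4 and Cyp4a14, genes known to rise with fasting and picked after their values were seen, set the diets apart in male liver or muscle. Pdk4 in male liver was at 5.18 to 14.7 CPM under AL and 26.1 to 40.7 CPM under IF. In male cortex it was at 5.38 to 9.23 CPM and 7.67 to 10.3 CPM, and its log2 fold change of 0.28 ± 0.11 did not pass. Pdk4 in male muscle was at 112.5 to 330 CPM under AL and 776 to 1719 CPM under IF, with no overlap. In female muscle it was at 15.8 to 915.5 CPM under AL and 77.2 to 461 CPM under IF. Cyp4a14 in male liver was at 24.5 to 155 CPM under AL and 754 to 1707 CPM under IF, whereas in female liver it was at 68.9 to 604 CPM and 86.3 to 412 CPM.

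Genes whose log2 CPM went most closely with that of Odc1 and Sat1 were found over the 32 libraries of a tissue after subtracting the mean of each sex. These are descriptions over libraries that share the diet groups. For Odc1 in liver, among 13423 genes, Pearson's r was 0.93 for Lsm4, Snrpb and Spcs1. Within the 16 male liver libraries these were 0.97, 0.97 and 0.98, and within the 16 female ones 0.72, 0.76 and 0.70. For Odc1 in muscle, among 12486 genes, r was 0.94 for Sorbs3, 0.89 for Tcp11l2 and 0.89 for Arrdc3. Within males these were 0.96, 0.93 and 0.94, and within females 0.75, 0.78 and 0.37. For Sat1 in liver r was 0.86 for Slfn2, 0.82 for Irf8 and 0.82 for Dusp2, with 0.82, 0.84 and 0.88 within males and 0.92, 0.79 and 0.76 within females. In muscle it was 0.83 for Arpc1a, 0.83 for Luc7l and 0.82 for 4833420G17Rik, with 0.94, 0.91 and 0.87 within males and 0.53, 0.55 and 0.65 within females.

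The promoters of Odc1 and Oaz1 are shown because both genes rose in male liver under IF with no overlap between the diets. RefSeq windows of 300 bases on GRCm38.p6 were at hand for 8 of the 10 genes, and not for Srm and Azin1. They were searched on both strands for the E-box that Myc binds, spelled CACGTG. A match to it was present in 7.15% of all 32851 windows and, among the 10 genes, in a window of Sms. Each window lies around a start of transcription, and bases outside the windows were not searched. A match elsewhere in or near these genes would not be seen. The core of the cyclic AMP response element, spelled TGACG, was present in 20.8% of all windows and in those of Odc1, Amd1 and Oaz1. The full cyclic AMP response element, which contains that core, is spelled TGACGTCA. It was present in 1.79% of all windows and in no window of those 8 genes. The Odc1 window is chr12:17544623-17544922 and the Oaz1 window chr10:80826406-80826705, both on the plus strand, with the core in capitals.
Odc1 promoter: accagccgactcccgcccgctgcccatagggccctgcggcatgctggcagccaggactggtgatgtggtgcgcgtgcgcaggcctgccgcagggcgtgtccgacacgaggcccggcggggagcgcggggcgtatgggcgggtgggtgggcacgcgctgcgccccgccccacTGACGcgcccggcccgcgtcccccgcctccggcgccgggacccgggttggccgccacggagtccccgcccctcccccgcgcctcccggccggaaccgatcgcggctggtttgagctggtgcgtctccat
Oaz1 promoter: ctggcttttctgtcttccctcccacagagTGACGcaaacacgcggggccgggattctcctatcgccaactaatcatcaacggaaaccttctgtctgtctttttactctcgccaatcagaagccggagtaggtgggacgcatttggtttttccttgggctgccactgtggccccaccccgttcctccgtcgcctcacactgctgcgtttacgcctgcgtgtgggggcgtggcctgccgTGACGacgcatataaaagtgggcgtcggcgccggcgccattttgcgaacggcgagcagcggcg

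Antizyme is made only when ribosomes shift frame at a stop codon in its mRNA, a step that gene counts do not measure. The sites of Oaz1 and Oaz2 are shown to place that step. In GRCm39 the annotation skips a T at chr10:80664129 in 3 of the 6 Oaz1 transcripts and at chr9:65593554 in 2 of the 6 Oaz2 transcripts, which joins the reading frames. The 30 bases around it are chr10:80664114-80664143 and chr9:65593539-65593568, both on the plus strand and within coding exons, with the stop codon and the codon before it in capitals.
Oaz1 frameshift site: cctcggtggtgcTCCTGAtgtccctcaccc
Oaz2 frameshift site: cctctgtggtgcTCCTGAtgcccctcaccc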

How the data were processed

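The authors aligned reads of poly-A selected, directional libraries to GRCm39 with Hisat2 and deposited raw counts per gene from featureCounts, with 1 column per library. The strand setting and the treatment of reads with several matches are not given in the sources used here. CPM was computed from these deposited counts and plain library totals.

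For the diet comparisons, each tissue and sex was fitted alone in edgeR 4.0.16 (R 4.3.3). All main fits used TMM scaling, filterByExpr at its minimum count of 10 and total count of 15, and robust quasi-likelihood tests. Benjamini-Hochberg adjustment ran over all genes tested, with a threshold of 0.05. Interactions tested differences between sexes, and between liver and muscle with the mouse as a block. Differences between the sexes under AL came from fits over the AL and IF libraries of both sexes in a tissue. Fold changes are therefore on the TMM scale, whereas CPM is not. The SE printed with a fold change is its absolute log2 value divided by the square root of its quasi-likelihood F statistic.

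The members and lists were chosen with earlier results of these data known. Text names all 10 members, counts over the wider pathway list, its 3 called genes of largest absolute log2 fold change in each comparison, Amd2 and Eif5a, and the 3 genes most like Odc1 and Sat1 in liver and in muscle. Some genes that this rule names are not reported here. Likeness used log2 CPM with a prior count of 2 and genes with a mean of at least 1 CPM. Sums of cell type marker CPM were compared by exact two-sided permutation tests, adjusted over 60 tests. The same sums were set side by side between the sexes under AL without a test, after the data were seen.

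Alternatives were RLE size factors, library totals alone, DESeq2 1.42.0, no filter on low counts, a replicate block, erythrocyte or adipocyte covariates, AL mouse 2 and IF mouse 10 left out, the cortex library labelled male AL 1 kept, and TMM-scaled CPM for the markers. Comparisons between the sexes under AL, and the refits without AL mouse 2 alone or without the libraries richest in a marker or nearest to that cortex library, were added after the data were seen.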

Additional observations from a re-analysis of the deposited data

Results flagged for a closer look

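In 9 of the 120 groups of member levels, a library lay far from the rest relative to the range of its group, where chance gives about 1 in 20. Mouse 28, an AL female, was the highest of its group for Odc1 in muscle at 109.3 CPM (next 78.0), for Sat1 in liver at 125.7 CPM (next 98.0) and for Smox in liver at 10.07 CPM (next 6.38). Mouse 2, an AL male, was the highest for Srm in liver at 60.26 CPM (next 32.6) and for Oaz1 in liver at 230.3 CPM (next 155.7). Srm in muscle of IF female mouse 34 was at 16.41 CPM, Sat1 in liver of IF male mouse 16 at 101.6 CPM, Sat1 in cortex of IF male mouse 12 at 53.2 CPM and Smox in liver of IF male mouse 9 at 10.07 CPM. Mouse 9 was also among the 2 IF males with most erythrocyte RNA in liver.

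Values that passed in the interaction fits are given as descriptions of genes picked with their levels known. As female minus male diet response on the log2 scale, the difference in liver, where 23.7% of all genes passed, was -1.57 for Odc1, -1.02 for Oaz1, 0.79 for Srm, 0.65 for Paox and 0.49 for Azin1. With library totals alone the values for Srm, Paox and Azin1 did not pass, and that for Srm did not pass without the filter on low counts or without AL male mouse 2. In muscle, where 14.2% of all genes passed, it was -1.14 for Odc1, -0.55 for Sat1 and 0.48 for Oaz2. Between liver and muscle of males, where 30.3% of all genes passed, 4 of the 10 did, and the difference, as liver minus muscle, was -1.08 for Paox, 1.09 for Oaz1, 0.47 for Oaz2 and -0.47 for Azin1.

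Outside the libraries used, the cortex library labelled male AL 1 held Xist at 213.3 CPM, within the range of the cortex females.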

How the results depend on the processing

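No called value changed sign under any alternative run. Of 770 recomputed fold changes of the 10 genes, 715 kept their side of the threshold and their direction, 19 no longer passed, 17 newly passed, and 19 that passed in neither fit changed sign. Odc1 stayed between 1.47 and 1.70 over 9 alternatives in male liver and between 1.23 and 1.44 over 8 in male muscle, and Oaz1 between 1.05 and 1.24 over 9 in male liver. Of the 60 marker sums, 3 no longer passed and 2 newly passed with TMM scaling.

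Counts moved by more than 1.5 times as follows, and the cause was not tested. With DESeq2 the genes called were 2259 in male cortex (1 of the 10, against 0), 6 in female liver, 97 in female muscle, 68 in female cortex, 713 for the sex interaction in cortex and 5 between liver and muscle of females; 2 of the 10 passed between the sexes in AL cortex, against 1. RLE size factors also gave 2 there. Library totals alone gave 0 of the 10 there, 0 genes in female cortex, and 3 and 5 of the 10 for the sex interactions in liver and muscle. Without the filter there were 1 gene in female cortex, 219 for the sex interaction in cortex and 0 of the 10 between the sexes in AL cortex. The erythrocyte covariate left 3995 genes in male liver. Without AL mouse 2 and IF mouse 10, 498 genes passed in male cortex. In male muscle 3 of the 10 passed without them, where 3245 of all genes did. With the library labelled male AL 1 kept, the cortex counts were 294 in males, 81 for the sex interaction, and 1326 genes with 0 of the 10 between the sexes under AL. Female cortex gave 0 genes without IF mouse 40.

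Replicate numbers were not taken to pair the AL and IF mice. Same-number correlations ran from -0.0409 to 0.105 in male liver, -0.14 to 0.108 in male muscle and -0.261 to 0.207 in male cortex. In females they ran from -0.178 to 0.11 in liver, -0.262 to 0.457 in muscle and -0.224 to 0.172 in cortex. In female muscle 4 of 8 pairs were over 0.1, and the replicate block called 1 gene there, as many as the main fit. With the replicate block 382 genes passed in male cortex and 0 in female cortex, and Paox did not pass in male muscle. Depth limits the text for genes near 0.115 CPM, which equals 3 counts in the shallowest library.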
